A study of Mus musculus with 21 samples.

Results

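The autophagy and lysosome genes followed here encode the proteins that build the autophagosome, the 2 transcription factors best known for controlling lysosomal genes, and the membrane proteins, hydrolases and proton pump of the lysosome. They came from a list of 38 mouse gene symbols, and a gene was counted when the tables of log2 CPM held it. Of the 38, 36 were in each of the 4 tables, which name 14698 different genes between them, while Map1lc3a and Ctsl were in none. All 21 libraries came from Ba/F3 cells, a mouse pro-B line that needs interleukin-3 until JAK2-V617F, here stably expressed after retroviral gene transfer, takes over growth control. Such cells carry the mutant kinase outside its usual myeloid setting, and no patient cell or animal is part of these tables. Cells were kept for 6 h with 1 µM ruxolitinib (Ruxo_treated), 1 µM CHZ868 (CHZ_treated) or DMSO (DMSO_treated). In the washout groups cells met 1 µM inhibitor or DMSO for 1 h, were washed with PBS and were cultured for 6 h without inhibitor, with Ruxo_wash set beside DMSO_wash and CHZ_wash beside DMSO_wash_exp3. Each of the 7 groups has 3 replicates. The labels do not state that these are separate cultures, so the p-values below measure only the spread between these libraries. The ruxolitinib and CHZ868 6 h comparisons share the DMSO_treated controls, and the values of different tables are not compared as levels.

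Autophagy begins when the ULK1 kinase complex and the Beclin 1 lipid kinase complex mark a membrane, to which a conjugation machinery then attaches proteins of the Atg8 family (LC3 and GABARAP). The closed vesicle fuses with a lysosome, where a proton pump keeps the lumen acidic for the hydrolases. Growth factor signalling through mTORC1 holds both steps down, in part by keeping the factors TFEB and TFE3 out of the nucleus, and interleukin-3-dependent cells are known to turn to autophagy when the cytokine is withdrawn. Ruxolitinib binds the active form of JAK2 and leaves its activation loop phosphorylated, whereas CHZ868 binds the inactive form.

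Reads recovered over all genes of a table ran from 7880220 to 10673060 per library in the 5 groups whose tables resolve into whole reads. The ruxolitinib washout table does not, so the depth of Ruxo_wash and DMSO_wash is unknown. The variance between replicates was 1.82 to 6.27 times sampling noise in most pairs. Ruxo_treated replicate 2 stood apart from its group (8.51 and 7.71 times), as did DMSO_wash_exp3 replicate 3 against replicate 2 (9.27 times). Several results that rest on them are given with and without them.

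The labels were checked against marker genes. Of 10 pro-B and B-lineage markers 3 were in the tables (Ptprc, Cd79a and Cd79b), with Ebf1, Pax5, Vpreb1, Igll1, Rag1 and Dntt among those in none, and Ptprc was the most abundant in every library. The 3 receptor genes of the interleukin-3 system (Il3ra, Csf2rb and Csf2rb2) were in all tables, none of 5 T cell markers was, and of 4 fibroblast markers only Col1a1 was found, in the ruxolitinib washout table. Of 8 macrophage and monocyte markers 2 were in the 6 h tables (Csf1r and Fcgr1), while Adgre1, Cd14, Lyz2, Itgam, Mrc1 and Cx3cr1 were not. Their summed level was 31.1, 32.6 and 28.3 CPM in the DMSO_treated replicates, 5.55, 10.9 and 12.6 CPM in CHZ_treated and 14.6, 10.7 and 18.2 CPM in Ruxo_treated, with Fcgr1 the more abundant except in CHZ_treated replicate 2 and Ruxo_treated replicate 3. After CHZ868 washout 3 of the 8 were present, led by Fcgr1, and summed to 38.1, 35.8 and 35.8 CPM in CHZ_wash and 37.3, 33.0 and 24.6 CPM in DMSO_wash_exp3. After ruxolitinib washout 5 were present, led by Lyz2, at 37.6, 40.4 and 36.7 CPM in Ruxo_wash and 44.2, 48.7 and 39.3 CPM in DMSO_wash. Their part in the results below was not tested. In bulk RNA, fewer cells of a type and less RNA per cell cannot be told apart.

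The first question was which autophagy and lysosome transcripts differ after 6 h under CHZ868, an inhibitor of JAK2. JAK2 signalling feeds into protein synthesis and nutrient uptake. Lysosomal digestion is a route by which cells recover amino acids and lipids. In limma with Benjamini-Hochberg adjustment, 21 of the 36 members passed an adjusted p of 0.05, 17 higher and 4 lower. The same fit called 53.2% of all 11670 genes (6214), 26.8% higher and 26.4% lower. The number of members called was thus near the share over all genes, while their direction was uneven where that of all genes was even. The median difference was 0.22 over the members and -0.01 over all genes, and 27 of 36 members lay above DMSO against 5767 of 11670 genes. By role, 5 of 8 hydrolases and activators, 3 of 5 membrane and transport genes and 2 of 3 proton pump genes were called higher and none lower, whereas initiation genes split 1 higher and 2 lower of 7 and conjugation genes 3 higher and 2 lower of 6.

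**Figure D1:**
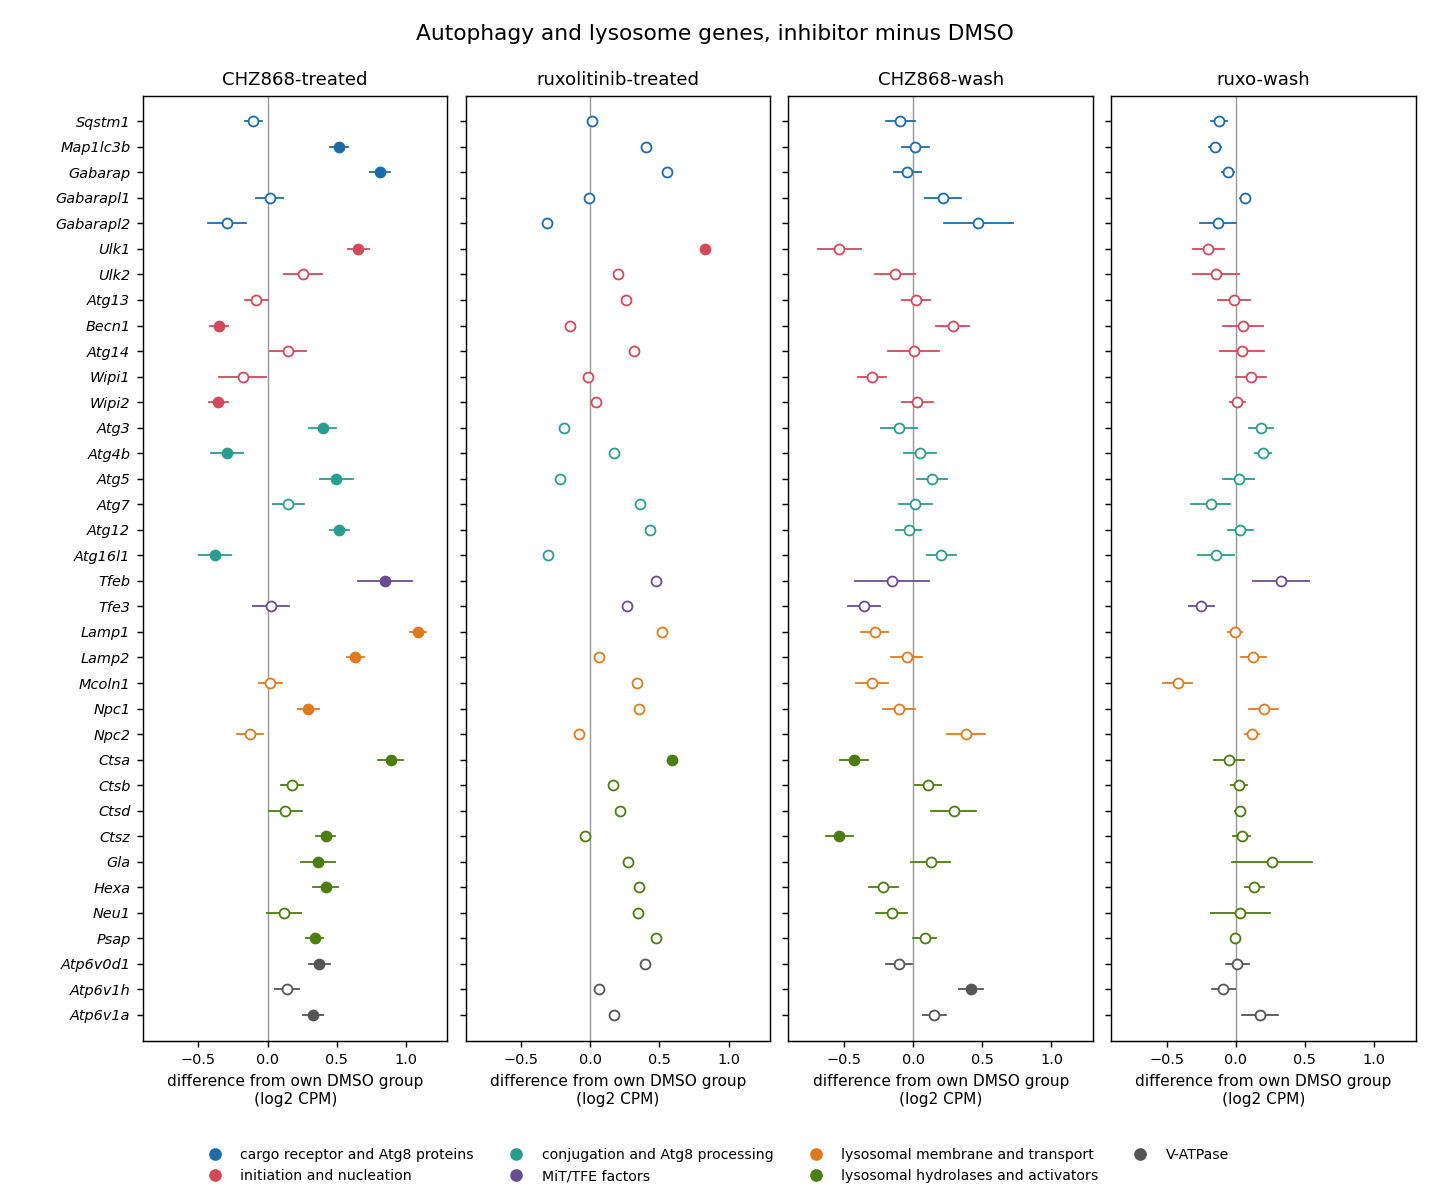
Difference of each of the 36 members from its own DMSO group in the 4 comparisons, in log2 CPM, ordered and coloured by role. Filled points passed the test or, for ruxolitinib at 6 h, the fold threshold, and bars are standard errors.

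Lysosomal membrane genes held the largest change. Lamp1, a heavily glycosylated protein that lines the inner face of the lysosomal membrane, was at 9.06, 8.91 and 8.90 log2 CPM in the CHZ_treated replicates and at 7.87, 7.89 and 7.85 in DMSO_treated. All 3 treated libraries lay about a unit above all 3 controls. Lamp1 rose by 1.09 (standard error 0.059, 2.12-fold, limma adjusted p 1.24e-09), which placed it at rank 246 of 11670 genes. Its partner Lamp2, also the receptor of chaperone-mediated autophagy, was at 8.78, 8.60 and 8.74 log2 CPM with CHZ868 and at 8.12, 8.02 and 8.08 with DMSO. The groups did not overlap, and Lamp2 rose by 0.63 (standard error 0.061, 1.55-fold, adjusted p 6.68e-07). Of the remaining genes of this role, the cholesterol exporter Npc1 was called higher by 0.29, whereas its soluble partner Npc2 (-0.12) and the calcium channel Mcoln1 (0.02) overlapped their controls.

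Among the hydrolases the widest difference was that of Ctsa, a carboxypeptidase that also protects neuraminidase and beta-galactosidase from breakdown. It stood at 7.02, 6.95 and 7.30 log2 CPM in CHZ_treated and at 6.19, 6.14 and 6.28 in DMSO_treated. Every treated library was above every control, and the rise was 0.89 (standard error 0.089, 1.85-fold, adjusted p 8.90e-07). Ctsz, a cysteine carboxypeptidase, was at 6.81, 6.93 and 6.96 log2 CPM against 6.54, 6.45 and 6.46 in the controls. It too was apart in all 6 libraries and rose by 0.42 (standard error 0.071, adjusted p 1.67e-04). Hexa, a subunit of the enzyme that trims gangliosides, and Psap, the precursor of the saposins, were called higher by 0.42 and 0.34. The difference of Psap ran from 0.21 to 0.39 over the alternatives. The alpha-galactosidase Gla was called higher by 0.36 (adjusted p 0.0236), but not without DMSO_treated replicate 1 (0.0742), DMSO_treated replicate 2 (0.101) or CHZ_treated replicate 3 (0.0706), and its adjusted p ran from 0.00752 to 0.101 over the alternatives. The proteases Ctsb (0.18) and Ctsd (0.13) and the sialidase Neu1 (0.12) did not pass. Of the proton pump, the membrane-sector subunit Atp6v0d1 (0.38) and the catalytic subunit Atp6v1a (0.33) were called higher, and the regulatory subunit Atp6v1h (0.14) was not.

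The MiT/TFE factors act on such genes through an E-box. Tfeb was scarce, at 3.71, 3.60 and 3.55 log2 CPM in CHZ_treated and 2.75, 2.90 and 2.67 in DMSO_treated. Its groups were clear of each other, and it rose by 0.85 (standard error 0.19, 1.80-fold, adjusted p 0.00192, 3.74e-04 to 0.0115 over the alternatives). The difference itself ran from 0.56 to 1.03 over the alternatives. Tfe3, the more abundant of the pair, was at 4.93, 5.13 and 5.45 log2 CPM against 5.12, 5.25 and 5.06, so that its treated replicates fell on either side of the controls (difference 0.03, adjusted p 0.881). The related Mitf did not differ either (0.02, adjusted p 0.940), and Tfec was not in the tables. Where the proteins were located in the cells was not measured.

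The Atg8 proteins become anchored in the autophagosome membrane and hold cargo there. Gabarap was at 7.19, 7.39 and 7.26 log2 CPM with CHZ868 and at 6.50, 6.44 and 6.47 with DMSO, without overlap. It rose by 0.81 (standard error 0.070, 1.75-fold, adjusted p 1.90e-07). Map1lc3b, which encodes LC3B, rose by 0.52 (adjusted p 1.08e-05) with all treated libraries above all controls. Gabarapl1 (0.02) and Gabarapl2 (-0.29, adjusted p 0.0878) did not pass, and neither did the cargo receptor gene Sqstm1 (-0.10), although its treated libraries all lay below the controls.

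Initiation genes went both ways. Ulk1, the kinase that starts autophagy, was at 6.52, 6.48 and 6.45 log2 CPM in CHZ_treated and 5.79, 5.80 and 5.89 in DMSO_treated. Its groups were far apart, and it rose by 0.66 (standard error 0.076, 1.58-fold, adjusted p 4.12e-06). Becn1, the scaffold of the lipid kinase complex, was at 6.89, 6.98 and 6.94 log2 CPM against 7.37, 7.28 and 7.23. All its treated libraries were lower, and it fell by 0.35 (standard error 0.065, adjusted p 3.35e-04). Wipi2, which reads the lipid that this complex makes and recruits Atg16l1, was at 6.40, 6.43 and 6.39 log2 CPM against 6.73, 6.79 and 6.77. It was lower in 3 of 3 treated libraries and fell by 0.36 (standard error 0.068, adjusted p 4.43e-04). Ulk2 (0.26), Atg14 (0.15), Atg13 (-0.08) and Wipi1 (-0.18) did not pass.

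Conjugation genes were divided as well. The ubiquitin-like Atg12 and its target Atg5 were called higher by 0.52 and 0.50, as was Atg3, the enzyme that hands Atg8 proteins to the lipid, by 0.40. Atg16l1, which places the Atg12-Atg5 conjugate on the membrane, was at 5.43, 5.06 and 5.27 log2 CPM in CHZ_treated and 5.48, 5.58 and 5.83 in DMSO_treated. Its highest treated library lay just under the lowest control, and its call of -0.38 (standard error 0.12, adjusted p 0.0142) was lost without DMSO_treated replicate 3 (0.101) or CHZ_treated replicate 2 (0.0727) and without the intensity trend (0.0552), with 0.00431 to 0.101 over the alternatives. The protease Atg4b, which trims Atg8 proteins, was at 5.48, 5.71 and 6.01 log2 CPM against 5.92, 6.03 and 6.13. Its groups overlapped, and its call of -0.30 (standard error 0.12, adjusted p 0.0425) did not hold without DMSO_treated replicate 2 (0.103) or 3 (0.164) or CHZ_treated replicate 1 (0.174) or 2 (0.104), without the intensity trend (0.132) or with median centring (0.0624), over a range of 0.00115 to 0.174, and its difference was -0.17 without CHZ_treated replicate 1. Atg7, which activates both conjugation systems, did not pass (0.15).

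The next question was whether 6 h under ruxolitinib, the inhibitor used in patients, is marked by the same kinds of gene. Ruxolitinib competes with ATP at the active kinase, so signalling stops while the drug is present. The Ruxo_treated and DMSO_treated libraries are in different tables, whose names place both in the same experiment, although the labels do not state that they were run side by side. Values were centred on each library's median over 11624 shared genes and no test was run. A gene was set apart when its groups did not overlap and differed by 0.58 log2 units or more. Of the 36 members 2 did so, both higher (Ulk1 and Ctsa), against 11.5% of all genes (1339), 488 of them higher and 851 lower. Taken over both directions the members' share was smaller, and no member was among the falls that make up most of that count. Without the fold threshold, 16 members lay wholly above and 2 wholly below their controls, against 24.6% of all genes above (2855) and 20.1% below (2335), so that here too the members leaned upward. The median difference was 0.23 for the members and 0.04 for all genes.

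Ulk1 was at 1.12, 1.69 and 1.41 log2 units above the library median in Ruxo_treated and at 0.54, 0.55 and 0.64 in DMSO_treated. Its lowest treated library was still clear of the controls, and the difference was 0.83 (1.78-fold). Ctsa was at 1.44, 1.75 and 1.44 against 0.94, 0.88 and 1.04, apart in all 6 libraries, with a difference of 0.59. That value dropped under the threshold without Ruxo_treated replicate 2 (0.49) or DMSO_treated replicate 2 (0.55), and without Ruxo_treated replicate 1 Lamp1 and Gabarap joined the 2 genes for a total of 4. Leaving out replicate 2, the library that stood apart, kept Ulk1 and added Tfeb. Lamp1 was at 3.01, 3.37 and 3.04 against 2.63, 2.64 and 2.60, above its controls throughout by 0.52 and just short of the threshold. Gabarap (0.55), Psap (0.48), Atg12 (0.43), Map1lc3b (0.40) and Atp6v0d1 (0.40) were likewise higher in 3 of 3 treated libraries.

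Other members named under CHZ868 were read in the same way. Lamp2 was at 2.84, 3.09 and 2.73 with ruxolitinib and at 2.88, 2.77 and 2.83 with DMSO, with the treated replicates around the controls (0.06). Ctsz did the same (-0.04). Atg3 was at -0.07, 0.16 and 0.15 against 0.23, 0.24 and 0.34, below all controls by 0.19 where CHZ868 had placed it above. Atg16l1 was also below all its controls (-0.31). Becn1 overlapped its controls (-0.15), at 2.10, 1.61 and 1.98 against 2.12, 2.03 and 1.98, so the difference rested on replicate 2. Wipi2, Atg4b and Atg5 overlapped their controls, each with a mean on the other side of DMSO from CHZ868. Atg4b was at 1.04, 0.64 and 1.17 against 0.68, 0.78 and 0.88. Atg5 was at -0.22, -0.39 and -0.35 against 0.08, -0.27 and -0.12. Tfeb was at -1.68, -2.40 and -1.94 against -2.49, -2.36 and -2.58, and its replicate 2 fell among the controls (0.47). Tfe3 (0.26) and Mitf (-0.31) overlapped their controls too.

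**Figure D2:**
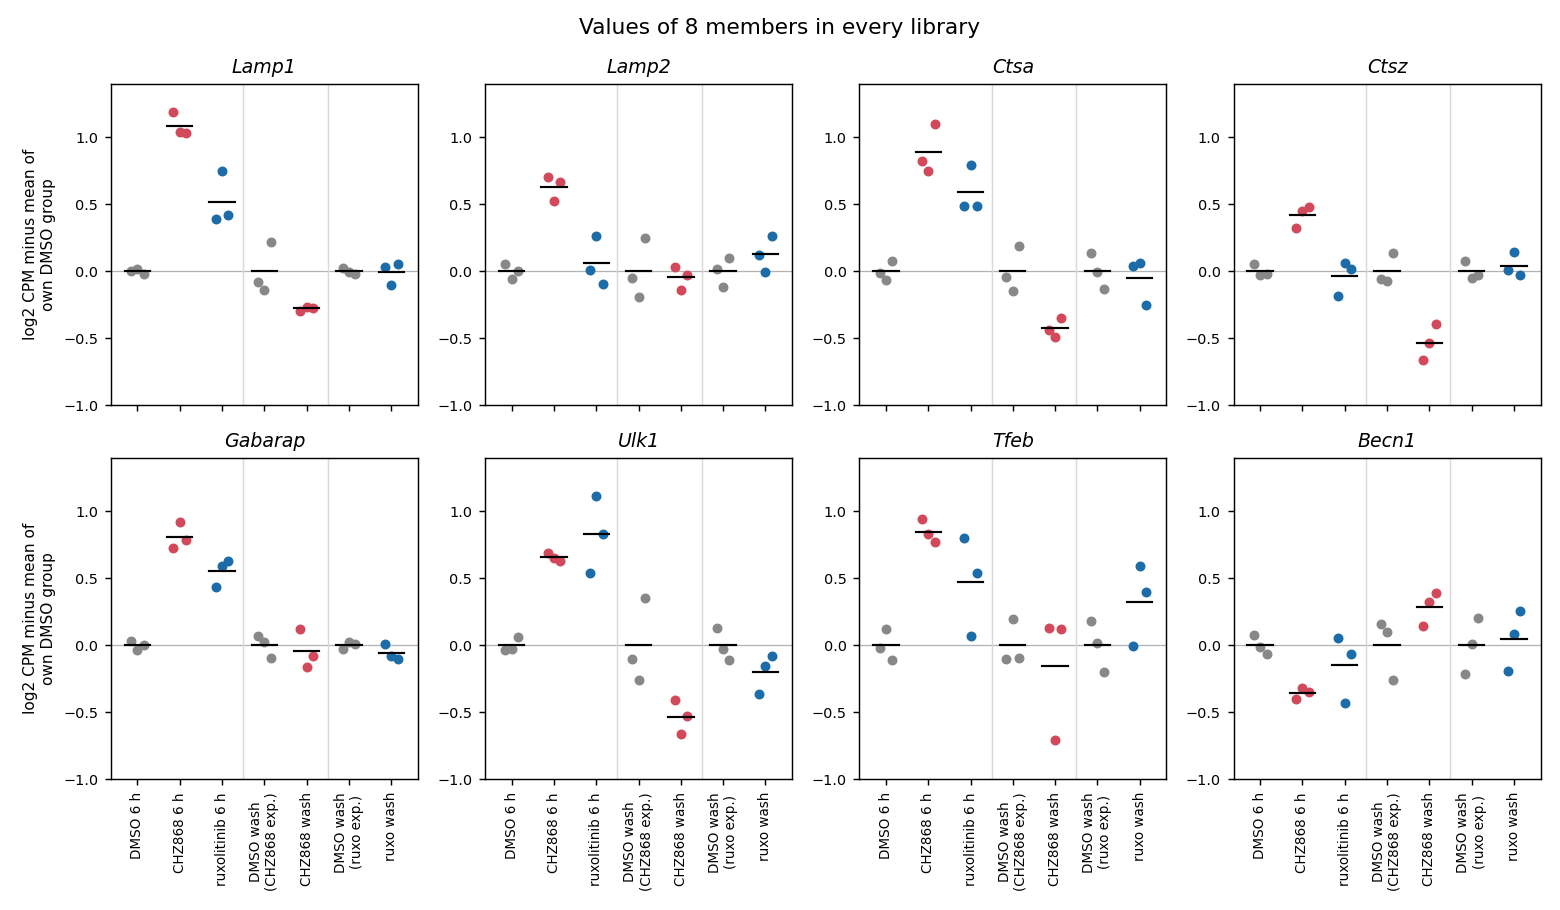
Level of 8 members in every library as the difference from the mean of its own DMSO group, with points for libraries and bars for group means. Ruxolitinib at 6 h is shown after centring on library medians.

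Washout asks what is left 6 h after a 1 h exposure to the drug. The drug was washed away by then, and the question is whether transcripts that differ under the drug are back at the control level or lie to either side of it. With CHZ868, 3 of 36 members passed, 1 higher and 2 lower, against 4.02% of all 11355 genes (457), 1.96% higher and 2.07% lower. The count is small, and it fell to 0 when any of 4 libraries was left out, namely CHZ_wash replicate 1, 2 or 3 or DMSO_wash_exp3 replicate 1. Without the intensity trend it was 0 as well, as was the count over all genes, with adjusted p at 0.103 for Ctsz, 0.119 for Ctsa and 0.103 for Atp6v1h. Without DMSO_wash_exp3 replicate 2 it was 6, with Npc2, Ulk1 and Lamp1 added, and without replicate 3, the library that stood apart, it was 4, with Wipi1 added. The median difference was -0.01 for the members and 0.01 for all genes.

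Ctsz was at 6.50, 6.63 and 6.77 log2 CPM in CHZ_wash and 7.10, 7.09 and 7.29 in DMSO_wash_exp3. All 3 washout libraries were below all 3 controls, and it fell by 0.53 (standard error 0.099, 1.45-fold, adjusted p 0.0323, 0.122 to 0.163 without each of those 4 libraries, 0.00376 to 0.163 over the alternatives). Ctsa was at 6.20, 6.15 and 6.29 log2 CPM against 6.60, 6.49 and 6.82, again without overlap, and fell by 0.43 (standard error 0.10, adjusted p 0.0483, 0.144 to 0.188 without each of the 4, 0.0167 to 0.188 over the alternatives). Atp6v1h was at 6.96, 6.93 and 6.82 log2 CPM against 6.51, 6.54 and 6.40, above every control, and rose by 0.42 (standard error 0.087, adjusted p 0.0372, 0.125 to 0.171 without each of the 4, 0.00652 to 0.171 over the alternatives). Both hydrolase genes thus stood on the opposite side of DMSO from their place under continuous CHZ868.

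Members that did not pass after CHZ868 washout included some of the widest rises under the drug. Ulk1 was at 5.03, 4.78 and 4.91 log2 CPM against 5.35, 5.19 and 5.80, below all controls (-0.53, adjusted p 0.0747). Lamp1 was at 8.18, 8.21 and 8.20 log2 CPM against 8.40, 8.34 and 8.69, also below them (-0.28, adjusted p 0.124). For both genes the highest control was DMSO_wash_exp3 replicate 3, the library that stood apart. Without it both differences are smaller, though still without overlap. Tfe3 had no overlap either (-0.35, adjusted p 0.0966). Tfeb overlapped its controls (-0.15, adjusted p 0.764).

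Ruxolitinib washout is the setting in which JAK2, left phosphorylated on its activation loop by the drug, becomes active again. No member passed there (0 of 36), against 0.0229% of all 13085 genes (3). At an unadjusted p under 0.05 in limma there were 4 members, 1 higher and 3 lower, against 7.03% of all genes (920). None of the other settings run called a member. Mcoln1, the calcium channel of the lysosome, was at 4.79, 4.94 and 5.17 log2 CPM in Ruxo_wash and 5.44, 5.33 and 5.40 in DMSO_wash, below every control (-0.42, p 0.00614, adjusted p 0.462). Map1lc3b was below all controls by 0.15 (p 0.0136, adjusted p 0.576) and Atg4b above all by 0.20 (p 0.0150, adjusted p 0.582). Tfe3 was at 4.17, 4.16 and 4.24 log2 CPM against 4.32, 4.58 and 4.42 (-0.25, p 0.0296, adjusted p 0.659), and Tfeb overlapped (0.33, adjusted p 0.796). The median difference of the members was 0.02, that of all genes 0.00.

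Whether the washout effects of the 2 agents differ was tested as ruxolitinib minus CHZ868, each against its own DMSO group. Agent and experiment change together here and cannot be told apart. Of the 36 members 2 passed, against 1.90% of all 10078 genes (191). At an unadjusted p under 0.05 there were 6, against 18.9% (1903), a share below that of all genes at that level. Ctsz differed by 0.57 (standard error 0.12, adjusted p 0.0371, 0.0176 to 0.0915 over the alternatives), with Ruxo_wash at 6.81, 6.95 and 6.78 log2 CPM overlapping its controls at 6.88, 6.75 and 6.78. Atp6v1h differed by -0.51 (standard error 0.12, adjusted p 0.0455, 0.0266 to 0.109 over the alternatives), with Ruxo_wash at 5.91, 5.66 and 5.91 log2 CPM against 5.98, 5.83 and 5.93. Both calls were lost on leaving out any library of Ruxo_wash, DMSO_wash or CHZ_wash or replicate 1 of DMSO_wash_exp3 (adjusted p 0.0613 to 0.0915 for Ctsz and 0.0679 to 0.109 for Atp6v1h). They were lost without the intensity trend too (0.0748 and 0.0874), held without DMSO_wash_exp3 replicate 2 and were joined by Hexa without its replicate 3. The median difference was 0.01 for the members and -0.01 for all genes.

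The last contrast set the effect of continuous CHZ868 against that of its washout, which asks which transcripts stand elsewhere with the drug present than 6 h after its removal. Exposure time, recovery and experiment differ between the sides, so their parts cannot be told apart. Here 18 of 36 members passed, 13 higher under continuous drug and 5 lower, against 47.1% of all 11175 genes (5261), 23.2% higher and 23.8% lower. The count was again near that of all genes and the direction was not. The median was 0.26 for the members and -0.02 for all genes. Of the lysosomal genes, Lamp1 differed by 1.36 (standard error 0.12, adjusted p 1.85e-07), Ctsa by 1.31 (standard error 0.14, adjusted p 2.20e-06) and Ctsz by 0.95 (standard error 0.12, adjusted p 1.14e-05). Each of these was above its DMSO group in 3 of 3 libraries under the drug and below it in 3 of 3 after washout. Ulk1, with the same pattern, differed by 1.19 (standard error 0.18, adjusted p 4.87e-05), and Gabarap by 0.85 (standard error 0.12, adjusted p 3.06e-05).

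Tfeb differed by 1.00 in this contrast (standard error 0.32, adjusted p 0.0176), a call lost without CHZ_wash replicate 2 (0.0503), in which Tfeb was lowest, and its adjusted p was 0.00469 to 0.0503 over the alternatives. The difference itself ran from 0.63 to 1.25 over them. Atg3 (0.50) lost its call without CHZ_treated replicate 1 (0.0527) or CHZ_wash replicate 3 (0.0536), over 0.00170 to 0.0536, and Npc1 (0.39) without DMSO_treated replicate 1 (0.0608), CHZ_treated replicate 3 (0.0502) or CHZ_wash replicate 2 (0.0811), over 0.00880 to 0.0811. The falls were Becn1 (-0.64, standard error 0.14, adjusted p 0.00136) and Atg16l1 (-0.59, standard error 0.17, adjusted p 0.00814), both kept throughout, and 3 others. Wipi2 (-0.39, adjusted p 0.0221) was lost without DMSO_treated replicate 2 (0.0515) or CHZ_wash replicate 2 (0.0725), over 0.00932 to 0.0725. Npc2 (-0.51, adjusted p 0.0315) was lost without replicate 1 or 2 of DMSO_treated, replicate 3 of CHZ_treated, 1 or 3 of CHZ_wash or 3 of DMSO_wash_exp3 (0.0525 to 0.0900) and without the intensity trend (0.0746), with 0.00440 to 0.0900 over the alternatives. Its difference was -0.33 without DMSO_wash_exp3 replicate 3. Gabarapl2 (-0.76, adjusted p 0.0477) kept its call, of the libraries left out, only without CHZ_treated replicate 1 or DMSO_wash_exp3 replicate 1 or 2 and was at 0.0541 to 0.0975 without each other library. It was also lost without the intensity trend (0.0842), with robust moderation (0.0520), median centring (0.0527) and quantile normalization (0.0771), with 0.00568 to 0.0975 over the alternatives. DMSO_wash_exp3 replicate 3, the library that stood apart, held its lowest value (3.61 log2 CPM against 4.55 and 4.78 in the same group), and without it the difference was -0.41.

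Wider lists of genes from the same pathways were read beside the members. Under continuous CHZ868 further cargo receptors were called 9 higher and 1 lower of 13, with a median of 0.36, against 53.2% of all genes called (26.8% higher and 26.4% lower). Calcoco1, a receptor for fragments of the endoplasmic reticulum, was at 6.47, 6.38 and 6.65 log2 CPM against 5.42, 5.57 and 5.48 and rose by 1.01 (adjusted p 2.70e-07), and the mitochondrial receptors Fundc1 and Bnip3 rose by 1.06 and 0.81. Further hydrolases were called 12 higher and 3 lower of 30, with Arsb (1.08) and Tpp1 (0.92) at the top and Ctsc at the bottom. Ctsc, which activates granule proteases, was at 6.18, 6.38 and 6.35 log2 CPM against 7.26, 7.31 and 7.32 and fell by 0.99 (adjusted p 2.80e-08). Further autophagy machinery was called 6 higher and 6 lower of 27, from Snap29 (0.76) to Atg16l2 (-0.91). Further membrane and sorting genes were called 5 higher and 2 lower of 16, further proton pump genes 5 and 1 of 14, and regulators of MiT/TFE factors and mTORC1 7 and 7 of 24, where Sesn2 (-0.63) and Lamtor1 (0.62) were at the ends. Apart from the cargo receptors, these lists were called near or below the share over all genes. With ruxolitinib, genes past the fold threshold were 3 higher and 0 lower of 13 cargo receptors (Calcoco1 0.91, Bnip3 0.72), 3 and 2 of 30 hydrolases (Ctsc -1.32), 1 and 1 of 27 in the autophagy machinery, 0 and 1 of 24 regulators (Lamtor4 -0.69) and 0 in the other lists, against 11.5% of all 11624 genes (488 higher and 851 lower). The counted genes Optn (0.64) and Arsb (0.74) rested on Ruxo_treated replicate 2, without which they were at 0.45 and 0.51, under the threshold.

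After CHZ868 washout the companion calls were few, as were those over all genes (4.02%). They were 1 of 26 machinery genes, 1 of 13 cargo receptors, 2 of 30 hydrolases, 1 of 14 pump genes and 0 elsewhere. Among these calls were Calcoco1 (-0.61), Atg2a (-0.50) and Lgmn (-0.35), all lower, and the pump subunit Atp6v1g1 (0.51), higher. Calcoco1 was at 4.77, 4.85 and 4.88 log2 CPM against 5.38, 5.23 and 5.72, apart in all libraries (adjusted p 0.0410, 0.0107 to 0.171 over the alternatives). These calls were lost on leaving out any replicate of CHZ_wash or replicate 1 of DMSO_wash_exp3, and without the intensity trend. No companion gene passed after ruxolitinib washout or in the difference between the washout effects in limma. In the contrast of continuous drug and washout, the cargo receptors were called 7 higher and 1 lower, led by Calcoco1 (1.62), hydrolases 9 and 2, autophagy machinery 8 and 6, membrane and sorting genes 6 and 3, proton pump genes 4 and 3 and regulators 5 and 7, against 47.1% of all genes (23.2% higher and 23.8% lower). Hydrolases (11 of 30) lay below that share.

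Per kilobase of exon, Lamp1 (87.4 CPM) and Psap (85.0 CPM) were the most abundant members in DMSO_treated cells, followed by Sqstm1 (70.2 CPM) and Ctsz (61.9 CPM), and Tfeb was the least abundant (1.17 CPM). The lengths pool the exons of every annotated transcript, so this order depends on the annotation. Before division by length Lamp2 had the highest level (269 CPM, over 9552 pooled bases). Some members share sequence with other genes in the GENCODE annotation of GRCm38. The kit keeps strand but the counting is not stated to have used it, so members that overlap a gene on the opposite strand are uncertain to that extent. Becn1 (chr11:101285952-101302286, minus strand) shares 3104 exonic bases with Cntd1, which was itself called lower under CHZ868 (-0.59). Cntd1 was also called lower in the contrast of continuous CHZ868 with its washout (-0.91), by more than Becn1. Lamp1 (chr8:13159161-13175338, plus strand) shares 249 with Grtp1 (0.22), Ctsa (chr2:164832873-164841032, plus strand) 495 with Pltp and 324 with Neurl2, Npc1 511 with Rmc1 (0.51), Sqstm1 580 with Mrnip (0.63) and Ctsb 774 with Fdft1. Near copies were matches of at least 200 bases and 90% identity in other genes. Map1lc3b has 12, the closest of 99.6% identity over 282 bases, and Gabarapl2 has 6, the closest of 99.4% over 349 bases. Atg4b has 1 of 90.8% over 720 and Atp6v1a 1 of 90.2% over 296, and Mcoln1 carries a repeat found in many genes. Reads of these members may have been placed elsewhere.

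MiT/TFE factors bind the E-box CACGTG, above all within TCACGTGA, the core of the element named CLEAR. Windows of 300 bases, from 250 before to 50 after the start of transcription, were read from RefSeq promoters on GRCm38.p6 for 31 of the 38 listed genes, with Map1lc3a, Atp6v1h, Atg16l1, Ctsb, Npc1, Atg12 and Becn1 missing. Both motifs read the same on either strand, and each TCACGTGA also holds the shorter motif. The shorter was in 12 of the 31 (38.7%) against 8.09% of 27025 genes with such windows, and the longer in 7 (22.6%) against 1.12%. The list includes genes on which these factors are known to act, so this excess is no finding about the inhibitors. Among members called higher under continuous CHZ868 the shorter and longer motifs were in 7 and 5 of 15, among those not called in 4 and 2 of 13, and among those called lower in 0 of 2. The FOXO motif GTAAACA, searched on both strands, was in 0 members against 4.05% of genes, and the STAT motif TTCNNNGAA, which also reads alike on either strand, in 3 (9.68%) against 9.55%. Neither Tfeb, Ulk1, Lamp2 nor Ctsz held an E-box in its windows. A match describes sequence, and binding in these cells was not measured.

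The sequences that follow are the parts of promoters that carry E-boxes in members called higher, with Mcoln1 as a member that has both motifs but was not called, each read on the strand of its gene with the motif in capitals. Lamp1 has 4 matches within 61 bases before its start, the most of those shown, and lies at chr8:13159080-13159160, plus strand. Ctsa has 2 around its second annotated start, at chr2:164833740-164833784, plus strand, and none at its first. Atp6v0d1 is at chr8:105566061-105566088, minus strand, Gla at chrX:134601173-134601253, minus strand, Atp6v1a at chr16:44139364-44139411, minus strand, Atg3 at chr16:45158715-45158784, plus strand, Atg5 at chr10:44268305-44268338, plus strand, and Mcoln1 at chr8:3500428-3500500, plus strand, all of GRCm38.p6 from RefSeq.
Lamp1: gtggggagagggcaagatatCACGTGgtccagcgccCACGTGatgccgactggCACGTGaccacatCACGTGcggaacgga
Ctsa: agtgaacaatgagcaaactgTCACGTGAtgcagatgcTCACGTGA
Atp6v0d1: agagccaggccctactgcggTCACGTGA
Gla: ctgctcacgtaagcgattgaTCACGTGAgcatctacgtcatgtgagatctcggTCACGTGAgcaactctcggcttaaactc
Atp6v1a: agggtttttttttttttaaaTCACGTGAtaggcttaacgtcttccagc
Atg3: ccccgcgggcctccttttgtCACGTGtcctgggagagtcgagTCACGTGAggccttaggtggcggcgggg
Atg5: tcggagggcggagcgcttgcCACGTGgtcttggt
Mcoln1: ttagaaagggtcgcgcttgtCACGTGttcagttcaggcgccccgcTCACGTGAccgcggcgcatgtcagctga

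**Figure D3:**
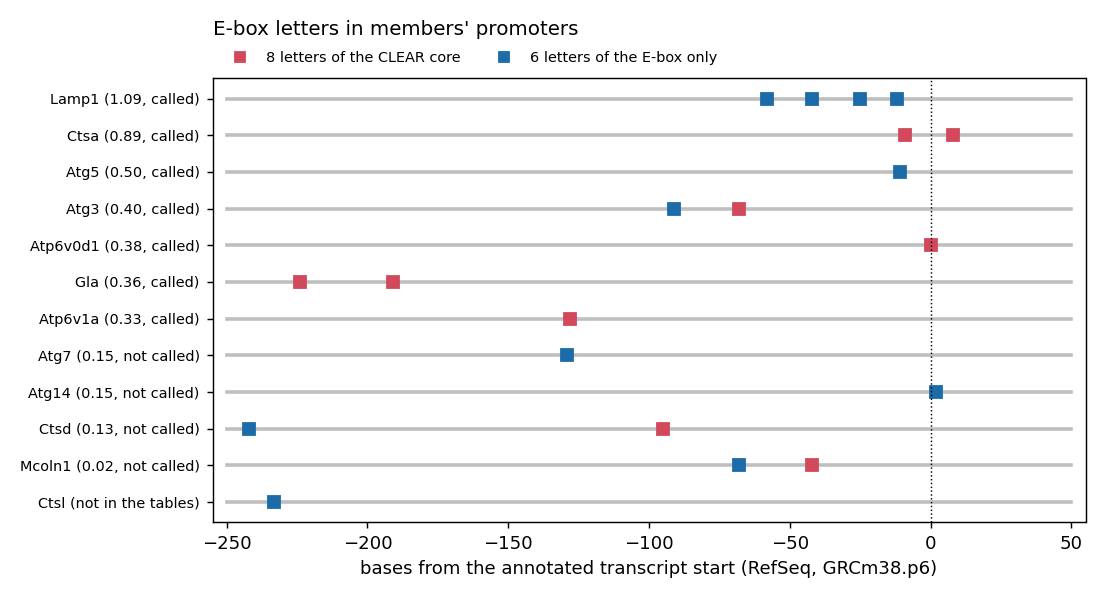
Position of E-box matches in the promoters of members relative to the annotated start of transcription, with Ctsa shown for its second start only.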

How the data were processed

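RNA-seq of 21 Ba/F3 libraries expressing JAK2-V617F was read from 4 deposited tables, whose values the authors gave as log2 CPM per gene after filtering and normalization. The paper names kallisto on GRCm38, per-gene sums through biomaRt, TMM factors in edgeR and limma-voom, whereas the submitters' processing notes name STAR 2.7.3a, edgeR 4.0.16 and GRCm39, and the tables do not settle which was used. From 3 of the tables the reads behind each value were recovered, giving 7880220 to 10673060 per library. The ruxolitinib washout table did not resolve, so its depth and precision are unknown.

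Groups followed the labels. Differences from the DMSO group of the same table, the difference between washout effects and the contrast of continuous CHZ868 with its washout were tested per gene in limma 3.58.1 (R 4.3.3) with an intensity trend and Benjamini-Hochberg adjustment over all genes, at an adjusted p of 0.05. The code was tested on simulated data. Ruxolitinib at 6 h has its controls in another table, so libraries were centred on their medians and a difference of 0.58 log2 units without overlap was asked for. Members, companion lists and markers were chosen with earlier results of these data known. Genes named are the 6 largest rises and 6 largest falls among those past the threshold of a comparison, the 3 smallest p where none passed, at most 3 each way from a companion list, and Tfeb, Tfe3, Mitf and Tfec always; others are named to complete a role. Alternatives were no trend, robust moderation, median centring, quantile normalization, a larger offset, an expression filter, limma-voom on recovered reads, a replicate block, a fold of 1 log2 unit and leaving out each library. GENCODE M21 gave overlaps and RefSeq promoters the motifs.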

Additional observations from a re-analysis of the deposited data

Results flagged for a closer look

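The difference between the washout effects of ruxolitinib and CHZ868 passed limma for Ctsz (0.57) and Atp6v1h (-0.51). They are listed because the test of this difference passed. Both calls were lost in 10 of 12 leave-outs and without the intensity trend, and agent and experiment cannot be told apart.

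The contrast of continuous CHZ868 with its washout passed for 18 members, listed because the test of this contrast passed. Exposure time, presence of drug, recovery and experiment differ between its sides and cannot be told apart. Higher under continuous drug were Lamp1 (1.36), Ctsa (1.31), Ulk1 (1.19), Tfeb (1.00), Ctsz (0.95), Gabarap (0.85), Lamp2 (0.68), Hexa (0.63), Atg12 (0.55), Atg3 (0.50), Map1lc3b (0.50), Atp6v0d1 (0.48) and Npc1 (0.39). Lower were Wipi2 (-0.39), Npc2 (-0.51), Atg16l1 (-0.59), Becn1 (-0.64) and Gabarapl2 (-0.76). The calls of Gabarapl2, Npc2, Npc1, Atg3, Wipi2 and Tfeb were each lost on leaving out some libraries.

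Atg3 at 6 h lay above all controls with CHZ868 (0.40) and below all controls with ruxolitinib (-0.19). The difference of 0.59 is listed because the directions were opposite, and it was not tested.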

How the results depend on the processing

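No replicate is stated to be a separate culture, the ruxolitinib 6 h comparison has no test, and proteins were not measured. Among members called or past the fold, no alternative reversed a direction. No scaling moved the median over all genes by more than 0.1. Under continuous CHZ868 the 21 members called were 19 to 24 on leaving out a library and 19 without the intensity trend, and the 18 of the contrast with washout were 14 to 19.

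After ruxolitinib washout, the 3 genes called were 9 without the intensity trend, 5 with robust moderation and 0 to 1 on leaving out a library. After CHZ868 washout, the 3 members and 457 genes were 0 and 0 without the trend. Leaving out a library gave 0 to 6 members and 0 to 1426 genes. For the difference between washout effects, the 2 members and 191 genes were 0 and 14 without the trend, and 0 to 3 members and 5 to 628 genes on leaving out a library. With ruxolitinib at 6 h, the 2 members past the fold were 1 with quantile normalization, 1 with the expression filter, 1 with the larger offset (813 genes in place of 1339) and 0 at a fold of 1 log2 unit (363 genes, 34 higher and 329 lower, against 488 and 851), and 1 to 4 on leaving out a library. The cause was not tested.

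A replicate block took equal replicate numbers as paired. It gave 0 genes after ruxolitinib washout, and 0 members and 6 genes for the difference between washout effects. The numbers do not pair: the correlations within numbers ran from -0.054 to 0.051. Of the inhibitor libraries, CHZ_treated replicates 2 and 3 and CHZ_wash replicate 2 correlated best with the control of their own number, and CHZ_treated replicate 1, CHZ_wash replicates 1 and 3 and all of Ruxo_wash did not.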
